A study of Rattus norvegicus with 12 samples.

Results

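The genes described here encode the nuclear subunits of the 5 oxidative phosphorylation complexes in the left ventricle of male Sprague-Dawley rats. They were taken as the protein-coding loci of the deposited count table whose symbol begins with Nduf followed by a subunit letter and number, Uqcr, Cox4 to Cox8 or Atp5, or is Sdha, Sdhb, Sdhc, Sdhd or Cyc1. The rule found 87 of the 34599 loci: 35 in complex I, 4 in complex II, 10 in complex III, 22 in complex IV (with Ndufa4 and Ndufa4l2 placed there) and 16 in complex V. RNA was taken from the infarct region 1 day after surgery, with 4 rats in each group. Sham rats had a thoracotomy without ligation, and MI rats had the left anterior descending coronary artery ligated to cause a myocardial infarction. The iCarP+/Light+ rats had the same ligation, live Chlorella algae injected into the infarct, the flexible photonic patch iCarP fixed on the heart with an adhesive gel, and illumination through it. Algae, patch, gel and light were applied together, and their effects cannot be told apart here. The rats' age was not given for this experiment, and no genotype or transgene was involved.

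Oxidative phosphorylation passes electrons from NADH (complex I, NADH dehydrogenase) and from succinate (complex II, succinate dehydrogenase) through complex III (cytochrome bc1) to complex IV (cytochrome c oxidase), which reduces oxygen. The proton gradient so built drives complex V, the ATP synthase. Most subunits are encoded in the nucleus and a few, at the core of every complex but II, in mitochondrial DNA. The beating heart makes nearly all of its ATP this way, and cardiac muscle uses its own isoforms of several complex IV subunits.

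Libraries held 14064414 to 17136958 counts, so that 3 counts, taken as the floor, correspond to at most 0.228 CPM (counts over the TMM-scaled library size, set to the same size for all). Of the 87 loci, 82 had enough counts to be tested. Ndufa10l1, Cox6c-ps1, Cox7b2 and Cox8c had 0 counts in all 12 rats, which allows up to that floor in each library. Cox7a1, listed at chr1:91071493-91074294 (rn6) and known as the heart and muscle form of its subunit, held 0 to 8 counts per rat, no more than 0.589 CPM. The table lists Cox7a1 on the minus strand of rn6, while RefSeq lists it on the plus strand of GRCr8, where 68 of 72 subunit loci keep their strand between the 2 sources. The other loci that change strand, Ndufa11, Ndufb7 and Cox7a2l, held 812 counts or more in every rat. Whether the gene model of Cox7a1 holds its reads was not tested, and the low count of Cox7a1 is not read as a low level. A pair of symbols was listed at 2 loci each. Cox6b1 on chromosome 1 held 6.15 to 7.72 times the counts of Cox6b1 on chromosome 2 in every rat, and Uqcrb on chromosome 7 held 0.753 to 1.45 times those of Uqcrb on chromosome 1. How reads shared by such near-identical copies were assigned is not given in the sources used here, so the split between them is uncertain.

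In Sham hearts the subunit genes together took 3.77% ± 0.32 (SD, n = 4) of all counts. Per kilobase of gene length, the highest levels were those of Atp5f1b, the catalytic β subunit of ATP synthase, at 3857 CPM per kb, Cox6a2, a muscle isoform of complex IV, at 2641, Cox4i1 at 2122 and Atp5f1a, the α subunit, at 2107. The lowest tested member, Cox6b2, a form known from testis, was at 1.499 CPM per kb. The order of the levels per kb was much alike in Sham and MI rats, with Spearman's rho of 0.94 across the 82 genes, which share their libraries and are not independent replicates. In MI rats Atp5f1b was again first, at 951 CPM per kb, followed by Cox4i1 at 636 and Cox6a2 at 478.

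The first comparison asked what infarction did to these genes. After TMM scaling of the libraries, 78 of the 82 tested subunit genes fell in MI rats relative to Sham rats and 0 rose. Scaling to cardiomyocyte markers turned their direction, and called most of all genes tested higher (given after the complexes). The background by TMM was high: of all 15101 genes tested, 33.6% were called lower and 30.2% higher (edgeR quasi-likelihood test, Benjamini-Hochberg adjusted p below 0.05). The median log2 fold change of the subunit genes was -1.94, to 26% of the Sham level, beside -0.06 over all genes tested. In 77 of the 82 genes each MI rat was below each Sham rat, as in 31.4% of all genes tested. As a share of counts the subunits fell to 1.41% ± 0.22 (SD, n = 4). The tissue is a mixture, and fewer cells of a type and less RNA per cell cannot be told apart in it.

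**Figure D1:**
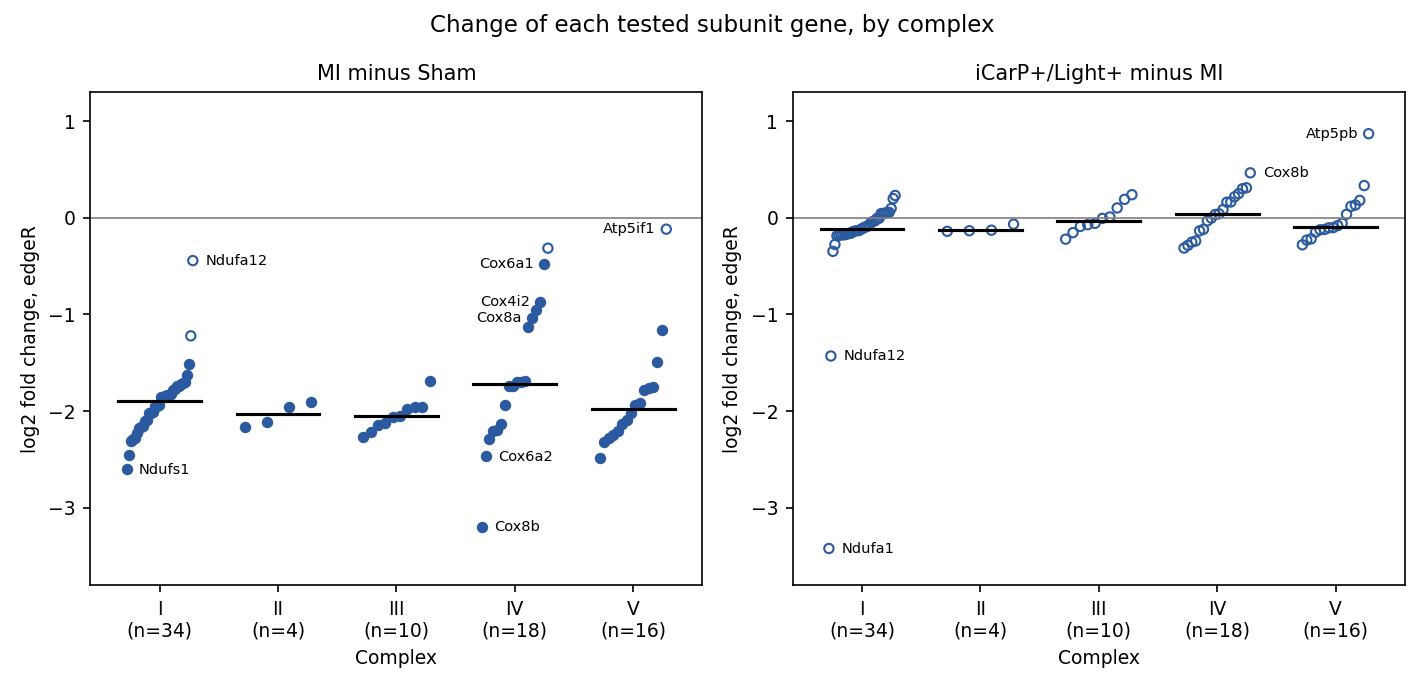
Log2 fold change of each tested subunit gene (TMM scaling) in complexes I to V, for MI minus Sham (left) and iCarP+/Light+ minus MI (right); filled points had an edgeR adjusted p below 0.05, open points did not, and black lines are medians. On the left 78 of 82 points are filled, all below 0 under this scaling, and on the right no point is filled. When libraries were scaled to cardiomyocyte markers, 81 of 82 subunit genes were called higher in MI than in Sham rats, as were 14132 of all 15101 genes tested.

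The 5 complexes fell by much the same amount by TMM scaling, with medians between -2.05 and -1.72. When scaled to the cardiomyocyte markers all 5 were higher, as were most of all genes tested. In complex I, 32 of 34 tested genes fell, with a median log2 fold change of -1.90. Ndufs1, which holds iron-sulphur clusters of the electron-entry arm, was at 854.6, 910.1, 853.6 and 878.6 CPM in the Sham rats and at 118.2, 166.5, 143.7 and 147.5 CPM in the MI rats. The groups were far apart, and this was the largest fall in the complex (log2 fold change -2.60 ± 0.18 SE, edgeR adjusted p = 1.38e-07). Ndufv1, the NADH-binding subunit, went from 744 ± 72.0 to 173 CPM (log2 fold change -2.10, edgeR adjusted p = 2.93e-07). Ndufa5, an accessory subunit, fell from 304 to 62.8 CPM (log2 fold change -2.28).

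The 2 complex I genes that were not called, Ndufa1 and Ndufa12, each had a single rat far above its group. Ndufa12, an accessory subunit, had 1000 counts in MI 4 against 118 to 194 in the other MI rats and 335 to 417 in Sham rats. Its log2 fold change was -0.44 (edgeR adjusted p = 0.517) and became -1.80 (adjusted p = 4.03e-05) without MI 4. Ndufa1 was named after its values were seen. It had 400 counts in Sham 3 and 279 in MI 1, and between 1 and 16 in each of the other 10 rats. The table gives Ndufa1 a length of 213 bases, and no direction can be read from these counts.

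All 4 genes of complex II fell, with a median of -2.03. Sdha, the flavoprotein that oxidises succinate, was at 994, 910.4, 864.6 and 898.9 CPM in Sham rats and at 173.7, 241.3, 200.2 and 236 CPM in MI rats (log2 fold change -2.11 ± 0.16 SE, edgeR adjusted p = 3.16e-07). Sdhb, the iron-sulphur subunit, changed least of the 4, by -1.90, and Sdhd, a membrane anchor, most, by -2.17. Sdhc, the other anchor, lay between them at -1.95. All 10 genes of complex III fell as well, between -2.27 for Uqcrc2, a core protein, and -1.69 for Uqcr11, a small accessory subunit, with a median of -2.05. Uqcrfs1, the Rieske iron-sulphur protein, went from 1051 ± 26.5 CPM to 238 (log2 fold change -2.15, edgeR adjusted p = 3.86e-07), Cyc1, cytochrome c1, from 1127 ± 49.6 to 259 (-2.12) and Uqcrh, the hinge protein, from 386 to 93.5 (-2.05).

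In complex V, 15 of 16 genes fell, with a median of -1.98. Atp5f1b was at 7460, 6798, 6409 and 6688 CPM in Sham rats and at 1432, 1980, 1651 and 1682 CPM in MI rats, the most abundant member in both groups (log2 fold change -2.02 ± 0.17 SE, edgeR adjusted p = 5.85e-07). Atp5f1a fell by 2.28 on the log2 scale, from 3905 to 806 CPM. Atp5me, a small membrane subunit, had the largest fall of the complex, -2.49, and Atp5f1d, the δ subunit of the central stalk, one of the smaller ones, -1.495. Atp5pb, a peripheral stalk subunit, was low, with 134 to 445 counts in Sham and 59 to 91 in MI rats (-2.24, edgeR adjusted p = 0.0073).

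Atp5if1 was the member of complex V that was not called. It encodes the inhibitory factor that blocks ATP hydrolysis by the synthase when the proton gradient is lost, and so is a regulator rather than part of the working enzyme. It was at 59.15, 76.08, 55.22 and 63.71 CPM in Sham rats, at 42.72, 59.18, 78.81 and 53.58 in MI rats and at 55.74, 50.54, 52.93 and 58.75 in iCarP+/Light+ rats. The 3 groups overlapped throughout. Its log2 fold change of MI over Sham was -0.12 (edgeR adjusted p = 0.547), where the other 15 genes of the complex lay between -2.49 and -1.16, and it was 0.45 (adjusted p = 0.0242) when libraries were scaled by their totals alone. Its locus is chr5:150719569-150723321 (rn6, minus strand).

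**Figure D2:**
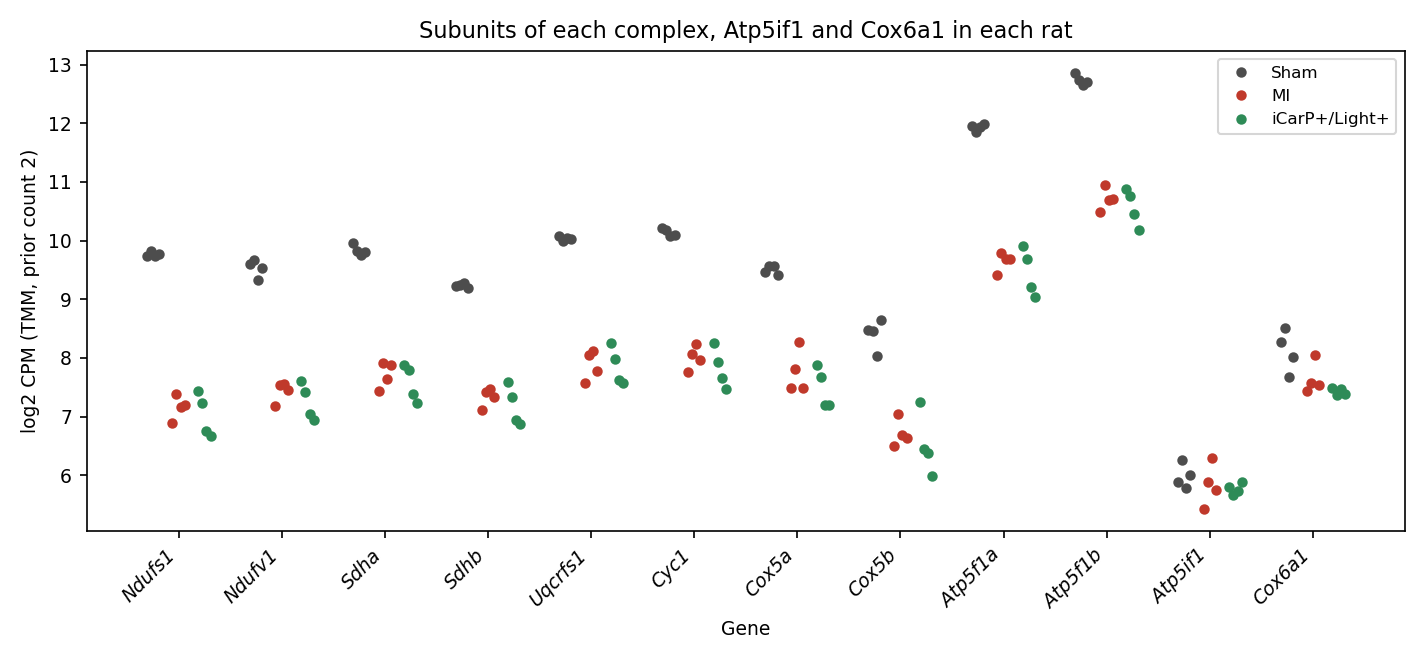
Log2 CPM (TMM scaling, prior count 2) of 2 subunits of each complex, Atp5if1 and Cox6a1 in each of the 12 rats, coloured by group. These 10 subunits are lower in each MI and iCarP+/Light+ rat than in each Sham rat under this scaling (as CPM values, not when scaled to cardiomyocyte markers), and Atp5if1 overlaps between the 3 groups.

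Complex IV had the widest range. Of its 18 tested genes 17 fell, with a median of -1.72, from -3.19 for Cox8b to -0.31 for Cox6b2, which was not called (edgeR adjusted p = 0.525, 5 to 14 counts per rat). Cox5a and Cox5b, nuclear subunits around the mitochondrially encoded core, fell by 1.70 and 1.70 on the log2 scale, from 725 and 343 CPM. Cox4i1, the common form of the subunit through which ATP inhibits the enzyme, went from 1551 to 465 CPM (-1.74), and Cox7a2, the common form of the Cox7a subunit, from 554 to 126 CPM (-2.13). Over the 80 tested genes with a mean of at least 5 CPM in the 3 groups, 67 lay within 0.5 of the median log2 fold change and 13 did not.

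Markers of cell types moved with these falls. All 11 tested cardiomyocyte markers fell in MI rats, with a median log2 fold change of -3.25, more than that of the subunits, and their summed level was 57720 to 62410 CPM in Sham and 3683 to 7658 CPM in MI rats. All 9 tested leukocyte markers rose (median 3.91), from 281 to 465 CPM summed in Sham to 4271 to 7775 CPM in MI rats. Of the other lists, 5 of 6 fibroblast, 5 of 5 endothelial, 4 of 7 mural and 5 of 6 red blood cell genes fell and none rose by TMM, where library totals alone gave 4, 2, 3 and 1 that fell and 2 mural cell genes that rose. Within a library, the summed counts of the subunits were 0.727 to 0.801 times those of the cardiomyocyte markers in Sham rats and 1.68 to 2.43 times in MI rats. When libraries were scaled to the cardiomyocyte markers, 81 of the 82 subunit genes were accordingly called higher in MI rats and 0 lower, with a median of 1.44, and Cox8b, at 0.08, was not called. Of all 15101 genes tested, 14132 were called higher and 130 lower in the same way. That scaling moved the median of all genes to 3.40, and the subunits differed from it by -1.96, where they differed by -1.88 with TMM. The part of cell composition in the fall of the subunits was not tested.

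**Figure D3:**
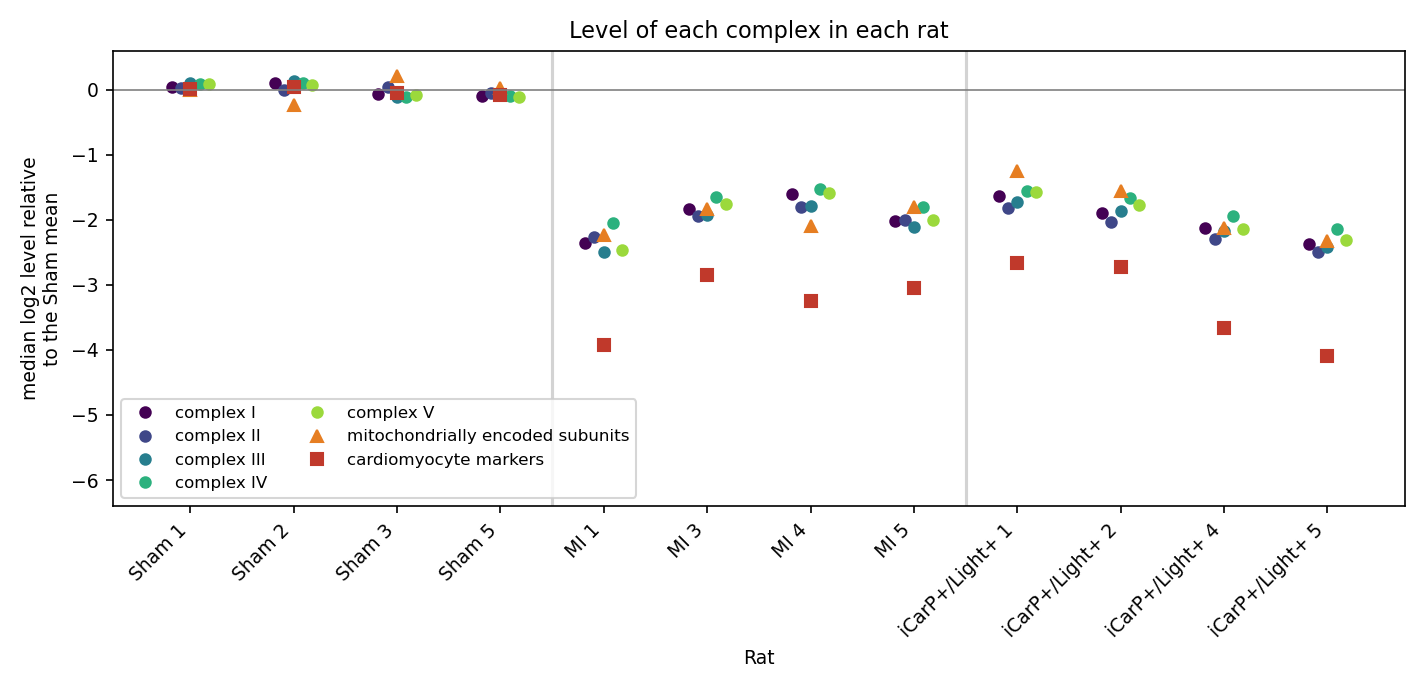
Median log2 level, relative to the Sham mean (TMM scaling), of the genes of each complex (circles), the mitochondrially encoded subunits (triangles) and the cardiomyocyte markers (squares) in each rat. The 5 complexes lie close together in every rat and above the cardiomyocyte markers in each MI and iCarP+/Light+ rat. They are thus lower than in Sham rats by TMM and, like most of all genes tested, higher when scaled to those markers.

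The MI rats were not alike. MI 1 was the lowest of the 4 in 74 of the 82 subunit genes and MI 4 the highest in 66. The median level of the subunits, relative to the Sham mean, was -2.38 in MI 1 and -1.82, -1.62 and -2.01 in MI 3, 4 and 5, and the cardiomyocyte markers were lowest in MI 1 too, at -3.92. In MI 1 the 36 subunit genes shorter than 600 bases stood 0.60 below their mean over the MI rats and the 46 longer ones 0.30 below, beside 0.24 below for all short genes. In MI 4 the short subunit genes stood 0.39 above and the longer ones 0.28 above, beside 0.36 above for all short genes. Without MI 1, 78 subunit genes were called lower, with Cox6a1 no longer and Ndufa1 now among them, and the median log2 fold change was -1.80.

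Of 6 isoform pairs of complex IV, 4 had ratios that did not overlap between Sham and MI rats, and none passed the exact permutation test after adjustment over all 21 ratios and comparisons (adjusted p at least 0.075). Ratios of 2 isoforms within a library do not depend on how libraries are scaled. Cox6a2, the heart and skeletal muscle form of its subunit (chr1:199624037-199624783 in rn6), was at 1348, 1235, 1115 and 1320 CPM in Sham rats and at 141.3, 287.4, 248.2 and 230.6 CPM in MI rats. Cox6a1, the form of most other tissues (chr12:47024442-47027495), was at 309.7, 362.9, 203.3 and 259 CPM and at 172.8, 189.5, 264.8 and 186.8 CPM. Cox6a2 thus fell in every MI rat, while Cox6a1 overlapped between the groups (log2 fold change -0.48, edgeR adjusted p = 0.0286, and 0.08 with library totals alone, adjusted p = 0.699). That call was also lost without Sham 1, Sham 2, MI 1, MI 3, MI 5 or iCarP+/Light+ 5 (adjusted p up to 0.105), with DESeq2 size factors (0.0579) and with the compared groups alone (0.142). Per kilobase, Cox6a2 made up 83.8% ± 2.95 (SD, n = 4) of the pair in Sham and 55.8% ± 6.76 in MI rats. The log2 ratio of Cox6a2 to Cox6a1 changed by -2.04 and did not overlap between the groups (two-sided exact permutation test over 70 arrangements, p = 0.0286).

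Cox8b, the muscle form of the smallest subunit (chr1:213648787-213650247 in rn6), showed the same pattern with Cox8a, the common form (chr1:222466575-222468896). Cox8b was at 539.3, 582, 458.5 and 420.7 CPM in Sham rats and at 19.33, 70.77, 54.72 and 73.94 in MI rats, the largest fall of all the tested subunit genes (log2 fold change -3.19 ± 0.40 SE, edgeR adjusted p = 1.60e-05). Cox8a was at 241.4, 280.9, 149.9 and 181.5 CPM and at 81.66, 102.8, 136.5 and 94.83 CPM. It fell less, by 1.04 on the log2 scale, and its groups did not overlap. The share of Cox8b in the pair, per kilobase, went from 78.7% ± 2.74 to 42.9% ± 12.8 (SD, n = 4 each). The log2 ratio changed by -2.33, with no overlap (exact permutation p = 0.0286).

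In 2 other pairs, Cox4i2 to Cox4i1 and Ndufa4l2 to Ndufa4, the ratio of the form known to respond to low oxygen to the common form was higher in each MI rat than in each Sham rat, and neither passed after adjustment (exact permutation adjusted p = 0.075). Cox4i2, the low-oxygen form of the Cox4 subunit (chr3:148234193-148245416 in rn6), was at 24.27, 23.86, 24.95 and 33.29 CPM in Sham rats and at 16.17, 15.79, 14.31 and 12.07 CPM in MI rats. It fell (log2 fold change -0.87, edgeR adjusted p = 6.63e-04, and -0.29 with library totals alone, adjusted p = 0.168), but less than Cox4i1, and the log2 ratio of the 2 differed by 0.90 with no overlap. Ndufa4l2 (chr7:70821957-70824085), known as a target of the hypoxia-inducible factor HIF-1, fell from 22.5 ± 1.74 to 10.3 CPM (log2 fold change -1.13) and Ndufa4, the subunit it resembles, from 686 to 141 CPM (-2.29). Their log2 ratio differed by 1.19, again with no overlap. Both low-oxygen forms remained minor, at 2.20% ± 0.585 and 5.98% ± 1.46 of their pair per kilobase in MI rats.

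The other 3 pairs overlapped between Sham and MI rats. Atp5mc1 and Atp5mc3, which encode the same mature c subunit of the ATP synthase ring, fell together, from 742 to 149 and from 1272 to 275 CPM, and their log2 ratio changed by -0.12 (exact permutation p = 0.371). Cox6b2 to Cox6b1 (the locus on chromosome 1, which fell from 488 to 152 CPM) changed by 1.34 (exact permutation p = 0.0571) on a few counts of Cox6b2, and Cox7a1 was too low for its ratio to Cox7a2 to be read. In all, 4 of 7 ratios did not overlap between Sham and MI rats. With 4 rats against 4 the smallest p the test allows is 0.0286, and adjusted over the 21 ratios and comparisons none went below 0.075. An adjusted p below 0.05 would have needed most of the 21 to be without overlap, so the lack of a pass is not read as no difference. A limma fit with a replicate block, which called some of these ratios, is given at the end. The lower ratio of a muscle form to a common form went with the fall of the cardiomyocyte markers given above, and the part of cell composition in it was not tested. For the higher ratios of Cox4i2 to Cox4i1 and of Ndufa4l2 to Ndufa4, neither cell composition nor a response to low oxygen was tested.

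**Figure D4:**
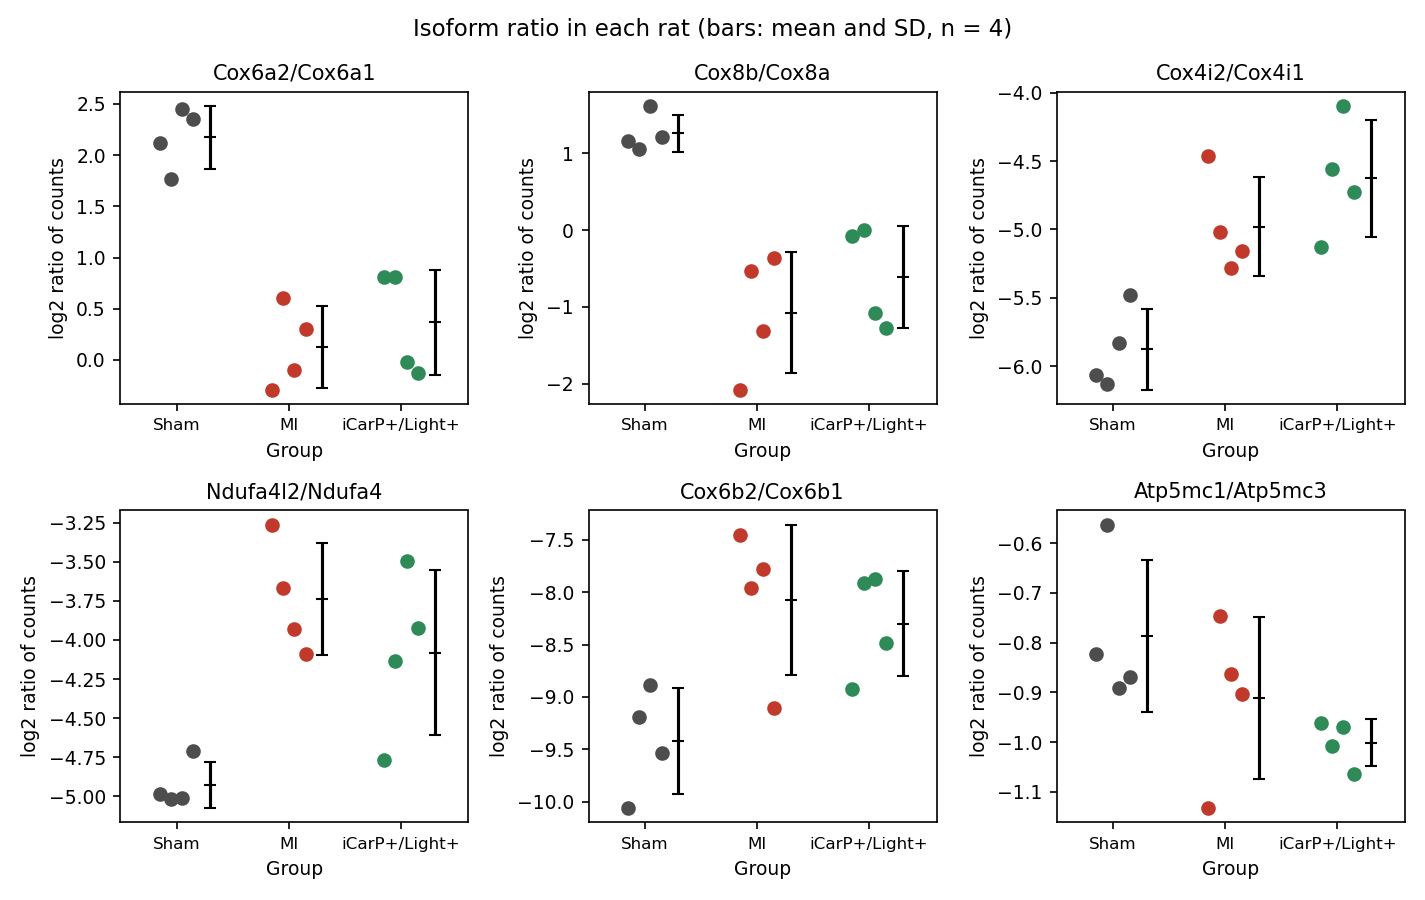
Log2 ratio of the counts of 2 isoforms (0.5 added to each) in each rat, with the mean and SD of each group (n = 4). The ratios of Cox6a2 to Cox6a1 and of Cox8b to Cox8a are lower and those of Cox4i2 to Cox4i1 and of Ndufa4l2 to Ndufa4 higher in each MI rat than in each Sham rat, and all 6 ratios overlap between MI and iCarP+/Light+ rats.

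The second comparison asked whether the illuminated patch with algae changed these genes in infarcted hearts. None of the 82 tested subunit genes was called higher or lower in iCarP+/Light+ than in MI rats by edgeR, DESeq2 or limma-voom, and 2, Ndufb10 and Ndufa12, had an unadjusted p below 0.05 in edgeR. Of all genes tested, 11.6% were called higher and 2.01% lower in this comparison. The median log2 fold change of the subunits was -0.08, beside 0.01 over all genes. By complex it was -0.11, -0.13, -0.03, 0.04 and -0.09 for I to V. Among the 80 genes with a mean of at least 5 CPM, 77 had a 95% interval within 1 of 0 on the log2 scale, which limits a change at these loci to less than a doubling or halving, before any adjustment for the number of genes.

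The values of the 2 groups lay side by side. Atp5f1b was at 1890, 1735, 1410 and 1166 CPM in the iCarP+/Light+ rats (log2 fold change over MI -0.12, 95% interval -0.48 to 0.23). Ndufs1 was at 174, 150.7, 107.3 and 102.1 CPM (-0.11, interval -0.47 to 0.26), and Uqcrfs1 at 305.5, 253.7, 196.7 and 190.3 CPM (-0.01, interval -0.36 to 0.35). Sdha had a log2 fold change of -0.14, the lowest in complex II, and Sdhc of -0.07, the highest. In complex III Uqcr11 was lowest at -0.22 and Uqcrh highest at 0.24, and in complex I Ndufa5 was highest at 0.23.

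In complex IV the changes ran from -0.31 for the scarce Cox6b2, and -0.29 for Cox5a among genes of at least 5 CPM, to 0.46 for Cox8b. Cox8b was at 103.9, 103.9, 51.11 and 42.66 CPM, with rats 1 and 2 above and rats 4 and 5 within the range of the MI rats (edgeR adjusted p = 0.493, interval -0.35 to 1.27). In complex V they ran from -0.28 for Atp5f1d to 0.87 for Atp5pb, the latter with 283 counts in rat 1 and 21 to 70 in the others (edgeR adjusted p = 0.436). Ndufa12 had the lowest value in complex I among genes of at least 5 CPM, -1.43 (edgeR adjusted p = 0.148), which rests on its high count in MI 4. None of the 7 isoform ratios separated the 2 groups. The log2 ratio of Cox6a2 to Cox6a1 differed by 0.24 (exact permutation p = 0.486) and that of Cox8b to Cox8a by 0.46 (exact permutation p = 0.40).

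The iCarP+/Light+ rats differed among themselves. The median level of the subunits, relative to the Sham mean, was -1.62, -1.83, -2.11 and -2.33 in rats 1, 2, 4 and 5, where the MI rats spanned -2.38 to -1.62. Rat 1 was the highest of the 4 in 75 of the 82 genes and rat 5 the lowest in 72. The cardiomyocyte markers followed the same order, with a summed level of 8968, 7399, 4241 and 3144 CPM, and 0 of 11 were called different from MI rats. Of the leukocyte markers 6 of 9 were higher than in MI rats and none was lower by TMM (6 higher and 2 lower with library totals alone), with sums of 6755 to 12150 CPM, and 4 of 6 red blood cell genes were higher. Without rat 1, 1 subunit gene, the accessory complex I subunit Ndufb10, was called lower than in MI rats and the median was -0.22. Without MI 1, the ratio of Atp5mc1 to Atp5mc3 no longer overlapped between the 2 groups. With library totals alone 6 of the 82 subunit genes were called lower, beside 2731 of all 15101 genes tested. The median of the subunits was then -0.34, as the median of all genes moved to -0.25.

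Against Sham rats, with which the MI comparison shares its controls, 79 of 82 subunit genes fell in iCarP+/Light+ rats and 0 rose by TMM scaling, beside 33.0% of all genes called lower and 33.5% higher. Scaled to cardiomyocyte markers 78 rose and 0 fell, beside 14102 of all 15101 genes called higher. By TMM the median log2 fold change was -1.96, beside 0.02 over all genes, and the subunits took 1.12% ± 0.27 (SD, n = 4) of the counts. The 79 include Ndufa1, whose call rests on the 400 counts of Sham 3 (-4.64, edgeR adjusted p = 0.0326, and -1.43, adjusted p = 0.432, without that rat), and was also lost without iCarP+/Light+ 2, 4 or 5 (adjusted p up to 0.0760) and with limma-voom (0.171) or the replicate block (0.266). Atp5if1 (-0.22, edgeR adjusted p = 0.249), Cox6b2 and Atp5pb were not called. Atp5pb was called by DESeq2 (-1.36, adjusted p = 0.0340) and limma-voom (-1.81, adjusted p = 0.0115), and by edgeR without iCarP+/Light+ 1 (-2.56, adjusted p = 3.66e-04). The log2 ratios differed by -1.80 for Cox6a2 to Cox6a1, -1.87 for Cox8b to Cox8a and 1.25 for Cox4i2 to Cox4i1, each with no overlap between the groups (exact permutation p = 0.0286, adjusted p = 0.075). The ratio of Ndufa4l2 to Ndufa4 changed by 0.85 and overlapped (exact permutation p = 0.0571). That of Atp5mc1 to Atp5mc3 differed by -0.21 with no overlap. In all, 4 of 7 ratios did not overlap.

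Genes around the subunits were read from lists. Their falls, like those of the subunits, are by TMM scaling, and scaled to the cardiomyocyte markers 13 of 13 mitochondrially encoded subunits, 48 of 48 assembly factors, 5 of 6 other carriers and 9 of 14 regulators rose in MI rats and 1 regulator, Perm1, fell. That scaling called 14132 of all 15101 genes tested higher in MI rats, so these rises are not particular to the lists. The 13 mitochondrially encoded subunits all fell in MI rats, with a median log2 fold change of -1.98, close to that of the nuclear ones, and none was called between iCarP+/Light+ and MI rats (1 had an unadjusted p below 0.05 in edgeR). Their summed counts were 5.40 to 8.24 times those of the nuclear subunits in Sham, 5.90 to 7.51 times in MI and 7.28 to 9.66 times in iCarP+/Light+ rats. The 6 carriers and subunits outside the rule all fell, among them Cycs, cytochrome c, from 754 to 154 CPM (-2.29) and Coq9, a factor of coenzyme Q synthesis, from 539 to 59.0 CPM (-3.19). Of the 48 tested assembly factors, which help build the complexes and are not part of them, 41 fell and 2, Coa4 and Pet100, rose, with a median of -1.02 (23 fell with library totals alone). In iCarP+/Light+ over MI rats 1 was called, Higd1a, a hypoxia-induced protein of the respiratory chain, which was named because it was the only call (log2 fold change 0.86, edgeR adjusted p = 0.0185). That call was lost without MI 5, iCarP+/Light+ 2 or iCarP+/Light+ 5 (adjusted p up to 0.0762), with the compared groups alone (0.0640) and with scaling to the cardiomyocyte markers. Library totals alone called 12 assembly factors lower, beside 2731 of all 15101 genes tested.

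Of 14 transcriptional regulators of mitochondrial genes, 9 fell and 2, Nrf1 and Tfb1m, rose in MI rats. Of all genes tested, 33.6% were called lower and 30.2% higher. Library totals alone gave 9 regulators lower and 5 higher, beside 2777 and 7706 of all 15101 genes tested. Perm1, a muscle regulator of oxidative metabolism, was at 252, 252.3, 282.3 and 239.1 CPM in Sham rats and at 2.009, 10.62, 5.198 and 5.528 CPM in MI rats (log2 fold change -5.46 ± 0.50 SE, edgeR adjusted p = 1.14e-06). Ppargc1a, which encodes the coactivator PGC-1α, fell from 24.1 to 3.12 CPM (-2.95), Esrrg, an oestrogen-related receptor that works with it, from 58.5 to 9.16 CPM (-2.68) and Esrra, another such receptor, from 169 to 88.1 CPM (-0.94). Nrf1, nuclear respiratory factor 1, rose from 20.8 to 31.6 CPM (0.60, edgeR adjusted p = 0.00165). Tfam, the mitochondrial DNA packaging factor, was at 59.7 and 51.0 CPM (-0.23, adjusted p = 0.146, and 0.35 with library totals alone, adjusted p = 0.0302), and was called lower without MI 4 (-0.32, adjusted p = 0.0437).

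Between iCarP+/Light+ and MI rats 3 of the 14 regulators rose, beside 11.6% of all genes tested called higher. Esrra was at 104.1, 136.9, 146.3 and 151 CPM, each rat above the MI rats at 74.58 to 101.2 CPM (log2 fold change 0.61 ± 0.15 SE, edgeR adjusted p = 0.0165). Nrf1 was at 35.53, 43.18, 51.11 and 50.67 CPM, each above the MI rats at 27.53 to 34.54 CPM (0.51, adjusted p = 0.0207). The share of all genes with such a separation was not counted for this comparison. Gabpb1, a subunit of nuclear respiratory factor 2, rose by 0.76 on the log2 scale (adjusted p = 0.0109) and is named because it was the remaining call. The 3 calls were lost with scaling to the cardiomyocyte markers and with library totals alone. Library totals called 0 regulators higher and 2 lower, beside 1205 and 2731 of all 15101 genes tested. Without iCarP+/Light+ 5 none of the 3 was called (adjusted p = 0.0961 for Esrra, 0.131 for Nrf1 and 0.0622 for Gabpb1), and Esrra was also lost without MI 5 and Nrf1 without MI 3, MI 5 or iCarP+/Light+ 4 (adjusted p between 0.0514 and 0.0691). Nrf1 was also lost with the compared groups alone (adjusted p = 0.0638), and both with the replicate block. Perm1 was not called (log2 fold change 1.25, edgeR adjusted p = 0.0860), but was by DESeq2 (1.19, adjusted p = 0.0375) and by edgeR without MI 3 (1.71, adjusted p = 0.0253) or iCarP+/Light+ 5 (1.44, adjusted p = 0.0393). Of the 9 leukocyte markers 6 rose between the same groups, and their part in these calls was not tested.

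Since the subunit genes moved together, their promoters were searched for the motifs of NRF1, the oestrogen-related receptors and HIF-1. RefSeq gives a window from 250 bases before to 50 bases after the start (GRCr8) for 73 of the 85 symbols. The core of the NRF1 motif, CGCNTGCG on either strand, was in 22 of these 73 windows (30.1%) and in 10.5% of the windows of 18999 protein-coding genes. The member windows also held more CpG dinucleotides, with a median of 20 against 12, and the motif itself holds CpG. The motif of oestrogen-related receptors, TNAAGGTCA, was in 3 member windows (4.11%, against 0.995%, and 1.37% against 0.863% in the 250 bases before the start alone), namely those of Ndufb4, Sdhd and Atp5mc3. All 3 also held the NRF1 motif. The core of the hypoxia response element, ACGTG, was in 19 (26.0%, against 20.4%). In 0 member windows did matches of 2 different motifs overlap. The median log2 fold change of MI over Sham was -2.04 in the 22 genes with the NRF1 motif and -1.95 in the 48 tested genes without it. A match is a run of letters, not a measured binding site.

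The 250 bases before the start are given for Sdhd and Atp5mc3, as members with such motifs, and for the muscle forms Cox6a2 and Cox8b and the common form Cox8a, whose levels moved apart. Capitals mark matches within these 250 bases, while the oestrogen-related receptor match of Sdhd and the NRF1 match of Atp5mc3 lie after the start. They are an NRF1 core 80 bases before the start in Sdhd, an oestrogen-related receptor motif 57 bases before the start and a palindromic hypoxia core near the far end in Atp5mc3, and hypoxia cores 155, 136 and 5 bases before the start in Cox8b and 207 bases before it in Cox8a. The Cox6a2 window held none of the 3 motifs, and the windows of Cox6a2 and Cox8b held 5 and 4 CpG dinucleotides against 15 in Cox8a. The windows lie at chr8:59850642-59850891 (Sdhd), chr3:79220665-79220914 (Atp5mc3), chr1:192219717-192219966 (Cox6a2), chr1:205408274-205408523 (Cox8b) and chr1:213833624-213833873 (Cox8a), all on the minus strand of GRCr8, and read 5′ to 3′ as follows.
Sdhd: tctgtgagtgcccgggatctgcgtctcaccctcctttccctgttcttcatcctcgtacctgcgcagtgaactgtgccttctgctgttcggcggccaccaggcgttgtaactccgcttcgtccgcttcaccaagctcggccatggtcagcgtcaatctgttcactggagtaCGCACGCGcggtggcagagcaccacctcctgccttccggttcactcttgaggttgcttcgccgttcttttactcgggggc
Atp5mc3: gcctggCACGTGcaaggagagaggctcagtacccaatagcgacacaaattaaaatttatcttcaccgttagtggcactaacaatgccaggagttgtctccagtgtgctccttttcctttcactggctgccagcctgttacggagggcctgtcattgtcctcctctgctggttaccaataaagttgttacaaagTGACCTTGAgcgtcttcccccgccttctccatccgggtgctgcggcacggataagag
Cox6a2: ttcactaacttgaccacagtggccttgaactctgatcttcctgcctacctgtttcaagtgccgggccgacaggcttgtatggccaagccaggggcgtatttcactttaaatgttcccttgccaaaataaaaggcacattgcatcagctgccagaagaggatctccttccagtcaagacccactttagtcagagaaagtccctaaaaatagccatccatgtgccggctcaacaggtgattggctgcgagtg
Cox8b: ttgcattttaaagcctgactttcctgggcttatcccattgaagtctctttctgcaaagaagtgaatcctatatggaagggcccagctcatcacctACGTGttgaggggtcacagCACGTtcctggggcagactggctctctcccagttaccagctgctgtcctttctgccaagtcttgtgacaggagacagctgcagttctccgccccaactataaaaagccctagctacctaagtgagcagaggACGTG
Cox8a: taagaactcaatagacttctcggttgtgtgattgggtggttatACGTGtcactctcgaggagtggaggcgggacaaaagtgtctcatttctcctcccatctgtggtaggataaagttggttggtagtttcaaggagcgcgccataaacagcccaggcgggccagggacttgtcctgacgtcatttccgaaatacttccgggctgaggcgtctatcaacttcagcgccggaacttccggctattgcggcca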

How the data were processed

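The authors deposited gene-level read counts, not normalised, of 12 rats in 1 table, with each gene's symbol, type, position and length. The submitters' processing notes name HISAT2, featureCounts and rn6; versions, strand setting and the handling of reads that fit several loci are not given in the sources used here. Without a strand setting, reads of overlapping and antisense genes cannot be told apart.

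Each of the 12 sample columns belongs to 1 rat. The quasi-likelihood test of edgeR 4.0.16 (R 4.3.3) was fitted to all 12 rats, with filterByExpr (minimum count 10), TMM scaling and no covariate beside the group. A gene was called where its Benjamini-Hochberg adjusted p, over the whole table, was below 0.05. CPM values are counts over the TMM-scaled library size. The fit was also run on simulated counts with known changes, whose outcome is not given here. Isoform ratios were compared by two-sided exact permutation tests (0.5 added to each count). Alternatives were other scalings, DESeq2 1.42.0, limma-voom (limma 3.58.1), other filters, the compared groups alone, a replicate block and leaving out each rat. Intervals are 95% intervals of the edgeR log2 fold change, and floors cover counting error only.

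Members and lists were chosen with earlier results of these data known. Named genes were the isoform pairs, 2 subunits of each complex fixed by name, the lowest and highest log2 fold change per complex in the first 2 comparisons (mean of at least 5 CPM) and 6 regulators. Not all listed symbols are in the table: 3 assembly factors and 1 marker each of cardiomyocytes, leukocytes and endothelial cells were left out. Within-group pairs of rats differed by 14.8 to 119 chi-square units per gene, where counting noise gives about 1. A replicate number shared between groups joins different animals, whose deviations correlated between -0.24 and 0.10 over 9 pairs. Promoter sequences are from RefSeq (GRCr8). The GC content of the counted loci was not tested, since no rn6 sequence was used here.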

Additional observations from a re-analysis of the deposited data

Results flagged for a closer look

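In 141 groups of 4 rats, covering the named subunit genes, Ndufa1, the levels of the complexes and the isoform ratios, 7 held a rat that stood apart from the other 3 by Dixon's test. Chance flags about 1 in 20 groups, here 7.05.

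Ndufa1 was flagged in 2 groups. In MI 1 the gap was 0.915 of the group's range (13.4 CPM, the others at most 0.270), and in Sham 3 it was 0.844 (30.3 CPM, the others at most 1.16). Uqcr11 was low in MI 1, at 69.6 CPM against 113.8 to 125.4 (0.836). Atp5pb was high in MI 4, at 5.09 CPM against 3.01 to 3.23 (0.866). In Sham 5, Atp5me was low, at 165.6 CPM against 198.2 to 202.3 (0.897), Cox4i2 was high, at 33.3 CPM against 23.9 to 24.9 (0.865), and the log2 ratio of Ndufa4l2 to Ndufa4 was high, at -4.71 against -5.02 to -4.98 (0.892).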

How the results depend on the processing

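Scaled to cardiomyocyte markers, 81 subunit genes were higher and 0 lower in MI than in Sham rats (median 1.44), and 78 higher and 0 lower in iCarP+/Light+ than in Sham rats (median 1.45). Of all 15101 genes tested, 14132 and 14102 were called higher in these comparisons. That scaling, tried for the other lists after the data were seen, gave between MI and Sham rats 48 assembly factors, 9 regulators, 5 other carriers and 13 mitochondrially encoded subunits higher and 0, 1, 0 and 0 lower; between iCarP+/Light+ and Sham rats 48, 10, 5 and 13 higher and 0, 1, 0 and 0 lower; and between iCarP+/Light+ and MI rats 0 assembly factors and 0 regulators higher. With library totals alone, 1 was higher in MI than in Sham rats and the medians were -1.37 (MI minus Sham), -0.34 (iCarP+/Light+ minus MI, 6 lower) and -1.64 (iCarP+/Light+ minus Sham). Atp5if1 (0.45), Cox6a1 (0.082) and Tfam (0.35) then turned sign between MI and Sham rats, 23 assembly factors were lower and 5 regulators higher in MI rats, and between iCarP+/Light+ and MI rats 12 assembly factors and 2 regulators were lower and 0 regulators higher. Of all 15101 genes tested, 7706 were then higher and 2777 lower in MI than in Sham rats, and 2731 lower in iCarP+/Light+ than in MI rats. In the first 250 bases 1.37% of member promoters held the oestrogen-related receptor motif, against 0.863% of all.

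Leaving out each rat gave 77 to 79 lower genes between MI and Sham, 0 to 1 between iCarP+/Light+ and MI and 78 to 80 between iCarP+/Light+ and Sham. The medians were -2.05 to -1.80, -0.22 to 0.03 and -2.08 to -1.82. Isoform ratios without overlap numbered 4 to 5, 0 to 1 (1 without MI 1) and 4 to 6.

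Same-numbered rats are different animals, and only 1 of 9 correlations was over 0.1. With the replicate block 78, 0 and 79 subunit genes were lower in the 3 comparisons, Esrra and Nrf1 lost their calls between iCarP+/Light+ and MI rats (adjusted p = 0.0989 and 0.0886), and a limma fit of the isoform ratios with the block gave adjusted p-values between MI and Sham rats of 0.00807 for Cox6a2 to Cox6a1, 0.0104 for Cox8b to Cox8a, 0.0403 for Ndufa4l2 to Ndufa4, 0.0371 for Cox6b2 to Cox6b1 (which rests on few counts and overlapped) and 0.102 for Cox4i2 to Cox4i1, and between iCarP+/Light+ and Sham rats of 0.0104 for Cox6a2, 0.0347 for Cox8b and 0.0347 for Cox4i2 to their common forms. Atp5pb was called lower in iCarP+/Light+ than in Sham rats with the block (-1.75, adjusted p = 0.0183) and Ndufa1 was not (-2.60, adjusted p = 0.266). Of 1332 values under alternatives other than leaving out a rat, 1264 kept direction and side of the threshold or stayed within the spread, 15 lost and 15 gained a call, 3 reversed and 35 moved by more than the spread or 1.5 times. The few counts of Cox6b2 and Cox7a1 limit what they can show, and whether the gene model of Cox7a1 holds its reads was not tested.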
